A study of Mus musculus with 6 samples.

Results

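The 10 genes described here encode the reticulocalbins Rcn1, Rcn2 and Rcn3, their relative calumenin (Calu), and 6 endoplasmic reticulum (ER) proteins that modify collagen: P4hb, P4ha1, P4ha2, Plod1, Plod3 and Fkbp10. They were taken by symbol from the 24061 genes of the count table, and 10 of the 10 symbols were found. All 10 passed the filter on low counts that left 13348 genes for testing. The list was chosen from these libraries with the difference between the macrophage subsets already known, and Rcn3 is among the genes that the study lists as differing. For these genes the difference between the subsets is therefore a description, given with its error and without a p-value. Counts of members that meet a limit on the adjusted p are also given only as a description.

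The libraries were bulk RNA-seq of CD45+CD11b+F4/80+ macrophages from the #4 inguinal mammary glands of female FVB/N mice, an inbred strain, sorted on the surface receptor Lyve-1 into a Lyve-1+ and a Lyve-1- subset. Each subset had 3 libraries, and each library came from the pooled glands of 4 mice. The pools numbered 1 were from mice aged 6 weeks, and those numbered 2 and 3 from mice aged 10 weeks. No genotype or treatment was varied. A pooled library averages over its mice, so the spread given here is that between pools of both ages.

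Collagen chains are modified in the ER before they fold into a triple helix. Prolyl 4-hydroxylase, a tetramer of catalytic alpha subunits (P4ha1, P4ha2) and the beta subunit P4hb, hydroxylates prolines that stabilise the helix, and lysyl hydroxylases (Plod1, Plod3) hydroxylate lysines that are later crosslinked or glycosylated. Fkbp10 is a prolyl isomerase that acts as a collagen chaperone. Reticulocalbins and calumenin belong to the CREC family of calcium-binding EF-hand proteins of the secretory pathway. Macrophages secrete proteins with collagen-like stalks, such as C1q and ficolins, whose prolines and lysines are hydroxylated in the same way.

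The promoters of Rcn3 and P4hb are shown because these 2 genes had the highest transcript levels per kilobase in Lyve-1+ macrophages, Rcn3 with a large and P4hb with a small difference between the subsets. RefSeq (GRCm38.p6) promoter sequences were found for 8 of the 10 genes, with none for Rcn1 and Fkbp10. Each line holds the 250 bases before the annotated start of transcription, 5' to 3' on the gene's own strand, with CCAAT boxes in either orientation in capitals.
Rcn3, chr7:45092214-45092463, minus strand: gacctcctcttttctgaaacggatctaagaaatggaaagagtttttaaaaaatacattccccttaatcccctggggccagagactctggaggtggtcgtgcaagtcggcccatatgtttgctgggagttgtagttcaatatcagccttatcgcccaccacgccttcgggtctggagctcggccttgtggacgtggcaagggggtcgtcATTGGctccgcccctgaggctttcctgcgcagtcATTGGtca
P4hb, chr11:120573254-120573503, minus strand: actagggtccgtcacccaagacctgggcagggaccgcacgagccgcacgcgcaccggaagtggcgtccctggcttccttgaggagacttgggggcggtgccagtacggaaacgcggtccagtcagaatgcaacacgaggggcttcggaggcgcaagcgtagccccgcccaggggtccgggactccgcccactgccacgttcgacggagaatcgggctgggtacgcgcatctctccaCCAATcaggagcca

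Rcn3 held 2 CCAAT boxes, both in reverse orientation, at 42 to 38 and at 8 to 4 bases before the start. P4hb held 1 in forward orientation at 14 to 10 bases before the start. A CCAAT box was present in 5 of the 8 promoters (Calu, P4hb, Plod3, Rcn2 and Rcn3) and in 33.8% of all 32851 RefSeq promoters of this length, searched on both strands. The ER stress response element, a CCAAT box with CCACG after 9 bases of any kind, was in 0 of the 8 and in 0.113% of all promoters, and the unfolded protein response element TGACGTGG was in 0 of the 8 and in 0.563%. The core of the hypoxia response element, ACGTG, which TGACGTGG contains, was in 6 (Calu, P4ha1, P4ha2, P4hb, Plod3 and Rcn3) against 16.6%, and the GC box GGGCGG was in 7, all except Plod3, against 32.7%. The core GAGGAA bound by the macrophage factor PU.1 was in 0 of the 8 against 23.3%. These matches describe letters in the window and were not tested for binding.

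Library totals ran from 6478007 to 21406839 counts. Lyve1 itself stood at 1.43, 6.66 and 7.44 CPM (counts scaled to library size) in the Lyve-1- libraries and at 2352, 788 and 597 in the Lyve-1+ libraries, so the labels and the sorted gene went together in all 6. Olfactory receptor genes, which these cells are not known to use, had counts in 652 of 1122 genes in Lyve-1- replicate 3, in 370 in Lyve-1+ replicate 1 and in 134 in Lyve-1+ replicate 2, but only in 4 to 34 in the other 3 libraries. Values without these 3 libraries, which leave 2 Lyve-1- and 1 Lyve-1+ library, are given beside the members whose fold moved by over 1.5 times or turned in sign. The macrophage markers, led by Cd14, summed to 3545 to 5787 CPM in Lyve-1- and 4721 to 6587 CPM in Lyve-1+ libraries. The 10 fibroblast markers, led by Dcn, were all measured, 9 were higher in Lyve-1+ and 0 were called, and their sum was 289.8 to 480.5 CPM in Lyve-1- and 533.1, 578.7 and 1455 CPM in Lyve-1+ libraries. None of the 10 was at 0 in any library. Conventional dendritic cell markers, led by Ccl22, ran the other way, at 333 to 1362 CPM against 45.8 to 213.8 CPM. Other sums, Lyve-1- before Lyve-1+, were 41.0 to 299.5 against 62.6 to 102.1 CPM for mammary epithelium (led by Krt18), 86.5 to 165.7 against 84.5 to 245.5 for endothelium (Pecam1, with 1 of 8 markers at 0 throughout), 19.8 to 125.9 against 29.0 to 190.5 for adipocytes (Fabp4), 92.6 to 254.6 against 115.5 to 159.5 for pericytes and smooth muscle (Myh11), 55.4 to 94.2 against 9.29 to 57.4 for T cells (Cd3g) and 9.66 to 23.3 against 28.6 to 219 for neutrophils (S100a9). The adipocyte sum was mostly Fabp4, since Adipoq, Plin1, Cidec and Lep were each at or below 2.77 CPM in every library. In the neutrophil sum, mostly S100a8 and S100a9, Mpo and Elane were at or below 6.63 CPM and Ly6g was not in the count table.

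Rcn3 stood 8.68-fold higher in Lyve-1+ than in Lyve-1- macrophages, and it was the member with both a large fold and substantial counts in every library. The gene (chr7:45082913-45092221, mm10, minus strand) encodes an EF-hand protein of the ER. It was counted 280, 260 and 80 times in Lyve-1- replicates 1, 2 and 3, and 3468, 2125 and 1125 times in Lyve-1+ replicates 1, 2 and 3. Scaled to library size this was 23.5, 23.1 and 11.7 CPM against 264, 102 and 142 CPM. Every Lyve-1+ library lay above every Lyve-1- library, and the lowest Lyve-1+ value, in replicate 2, was above the highest Lyve-1- value of 23.5 CPM. The means were 19.4 ± 6.73 and 169 ± 84.6 CPM (SD, n = 3), a log2 fold change of 3.12 (SE 0.43). The 6-week libraries alone differed by 3.48 on the log2 CPM scale. Leaving out single libraries gave log2 fold changes from 2.65 (without Lyve-1+ replicate 1) to 3.36 (without Lyve-1+ replicate 2). Rcn3 shares 290 bp of exon with the antisense gene Gm45669, and whether the counting used strand is not given in the sources used here. In a sorted bulk library, a higher level may come from more cells that carry the transcript or from more RNA per cell, and these cannot be told apart.

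Calu (chr6:29348069-29377110, plus strand), a chaperone-like relative of the reticulocalbins, did not show this separation. Its level was 309.7, 180 and 148 CPM in Lyve-1- replicates 1, 2 and 3 and 221, 222 and 276 CPM in the Lyve-1+ replicates. The groups overlapped, with the highest library of all being the 6-week Lyve-1- pool. The means were 213 ± 85.7 and 239.6 ± 31.7 CPM, a log2 fold change of 0.17 (SE 0.31). The log2 fold change turned to -0.03 without Lyve-1- replicate 3, and the value was 0.59 in the 10-week libraries alone. Calu shares 397 bp of exon with Opn1sw on the other strand.

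Rcn1 (chr2:105386291-105399319, minus strand), an ER-resident member of the family, was at 23.2, 22.2 and 9.18 CPM in Lyve-1- and 12.7, 7.67 and 17.3 CPM in Lyve-1+ libraries. The groups overlapped, because Lyve-1- replicate 3 was below 2 of the Lyve-1+ libraries. The log2 fold change was -0.54 (SE 0.75), one of the 2 negative values among the 10 genes. Rcn2 (chr9:56041845-56061882, plus strand), another ER member, was at 7.81, 0 and 14.4 CPM against 12.8, 22.4 and 5.42 CPM. The 0 in Lyve-1- replicate 2 allows up to 3 counts, or 0.267 CPM, which covers counting error only. Both extremes of Rcn2 came from replicate 2, the lowest in Lyve-1- and the highest in Lyve-1+, and its log2 fold change was 0.87 (SE 1.38). It was 0.29 without either of these 2 libraries and 1.79 without Lyve-1- replicate 3.

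Among the 4 CREC members of the list, the make-up of the transcripts differed between the subsets. Calu itself was at 45.6 and 51.4 CPM per kb in Lyve-1- and Lyve-1+ macrophages. Its share fell because that of Rcn3 rose, so the shares restate the Rcn3 difference. Per kilobase of exon, Rcn3 made up 15.4%, 22.8% and 15.3% of the summed level of Rcn1, Rcn2, Rcn3 and Calu in the Lyve-1- libraries and 74%, 52% and 55.7% in the Lyve-1+ libraries. Its mean share was 17.8% ± 4.3 against 60.6% ± 11.8 (SD, n = 3). Calu made up 70.5% ± 4.67 and 34.8% ± 10.4, so it was the leading transcript of the 4 in every Lyve-1- library and Rcn3 in every Lyve-1+ library. Rcn1 held 8.81% ± 2.73 and 2.55% ± 0.949, and Rcn2 held 2.9% ± 3.54 and 2.07% ± 1.82. The summed level itself was 89, 59 and 44.4 CPM per kb in Lyve-1- and 208, 114 and 148 CPM per kb in Lyve-1+ libraries. Sdf4 (Cab45), a Golgi member of the family outside the list, was at 194 ± 18.6 and 174 ± 27.4 CPM, with a log2 fold change of -0.16 (SE 0.27), and its libraries overlapped.

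**Figure D1:**
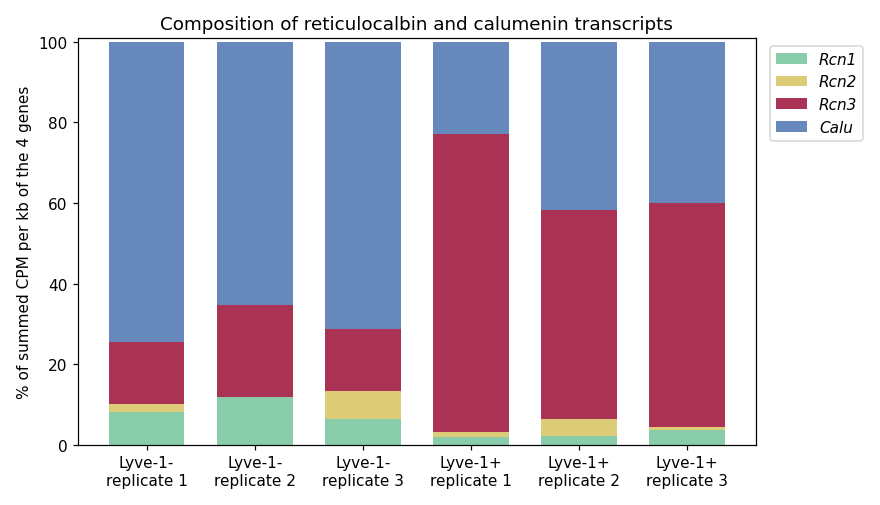
Stacked bars give, for each of the 6 libraries, the percent of the summed CPM per kb of exon of Rcn1, Rcn2, Rcn3 and Calu that each gene makes up. Rcn3 takes 15.3% to 22.8% in the Lyve-1- libraries and 52% to 74% in the Lyve-1+ libraries, and Calu takes most of the rest.

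P4hb (chr11:120560298-120573253, minus strand), protein disulfide isomerase and the beta subunit of prolyl 4-hydroxylase, was the most abundant of the 10 in both subsets. Its level was 656, 633 and 501 CPM in Lyve-1- and 772, 695 and 601 CPM in Lyve-1+ replicates 1, 2 and 3. The lowest Lyve-1+ library was below 2 of the Lyve-1- libraries, so the groups overlapped. The means were 597 ± 84.2 and 689 ± 85.7 CPM, a log2 fold change of 0.21 (SE 0.24), with 0.10 to 0.27 when single libraries were left out and -0.12 without the 3 libraries rich in olfactory receptor counts. Its pooled SD within subsets was 0.198 on the log2 CPM scale, at the 3.02 percentile of the genes tested, of which the median SD was 0.868.

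The catalytic subunits were less abundant. P4ha1 (chr10:59323296-59373304, plus strand) was at 103, 140.4 and 63.0 CPM in Lyve-1- and 146, 111 and 111 CPM in Lyve-1+ libraries. The groups overlapped, and the log2 fold change was 0.26 (SE 0.34), turning to -0.15 without the 3 libraries rich in olfactory receptor counts. P4ha2 (chr11:54100095-54131665, plus strand), the alternative alpha subunit, was low, with 16, 0 and 29 counts in Lyve-1- and 73, 132 and 59 counts in Lyve-1+ libraries. As CPM this was 1.34, 0 and 4.23 against 5.56, 6.32 and 7.43, so the groups did not overlap, yet the log2 fold change of 1.80 had an SE of 2.07. Leaving out Lyve-1- replicate 2 gave 1.22, leaving out Lyve-1- replicate 3 gave 3.24, and the value was 3.43 without the 3 libraries rich in olfactory receptor counts. That last fit held a single Lyve-1+ library, replicate 3, in which P4ha2 was highest. In Lyve-1- replicate 3 the count density of olfactory receptor genes would put 16.5 counts on the length of P4ha2, where 29 were found, and the log2 fold change was 2.46 with that density subtracted from each library.

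The subunits kept similar proportions in both subsets. P4ha1 made up 95.8% to 100% of the summed alpha subunit level per kilobase in the 6 libraries. P4hb exceeded the summed alpha subunits per kilobase 6.49-fold to 10.9-fold in Lyve-1- and 7.43-fold to 8.68-fold in Lyve-1+ libraries, and the Lyve-1+ range lay inside the Lyve-1- range.

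Both lysyl hydroxylases had overlapping subsets. Plod1 (chr4:147909753-147936767, minus strand), which hydroxylates lysines of the collagen helix, was at 71.8, 72.6 and 40.7 CPM in Lyve-1- and 185, 119 and 60.1 CPM in Lyve-1+ libraries. The lowest Lyve-1+ library was below 2 Lyve-1- libraries and the groups overlapped. The means were 61.7 ± 18.2 and 121.5 ± 62.6 CPM, a log2 fold change of 0.98 (SE 0.41). It ranged from 0.56 to 1.27 when single libraries were left out and was -0.28 without the 3 libraries rich in olfactory receptor counts. That last fit held a single Lyve-1+ library, replicate 3, in which Plod1 was lowest of the 3.

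Plod3 (chr5:136987019-136996648, plus strand), which also glycosylates hydroxylysine, was at 140.2, 40.0 and 43.3 CPM in Lyve-1- and 104, 55.3 and 47.4 CPM in Lyve-1+ libraries. Both 6-week libraries stood above all 4 of the 10-week libraries, and the subsets overlapped. The log2 fold change between subsets was -0.11 (SE 0.50) and was 0.71 without Lyve-1- replicate 1 and -0.95 without the 3 libraries rich in olfactory receptor counts. Plod3 shares 529 bp of exon with Znhit1 on the other strand and 9 bp with Mir702 on its own strand. Per kilobase, the ratio of Plod1 to Plod3 was 0.342, 1.21 and 0.628 in Lyve-1- and 1.19, 1.44 and 0.847 in Lyve-1+ libraries, with overlapping groups.

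Fkbp10 (chr11:100415697-100424824, plus strand) was nearly undetected in Lyve-1- macrophages and low in Lyve-1+ macrophages. It was counted 0, 16 and 8 times in Lyve-1- and 73, 70 and 121 times in Lyve-1+ libraries, or 0, 1.42 and 1.17 CPM against 5.56, 3.35 and 15.3 CPM. The groups did not overlap, and Lyve-1+ replicate 3 was far above the other 2. The log2 fold change was 3.21 with an SE of 2.10 and ranged from 2.34 (without Lyve-1+ replicate 3) to 3.80 when single libraries were left out. Of the 8 counts in Lyve-1- replicate 3, the density of olfactory receptor counts would account for 7.75, and subtracting it from each library gave 4.02. Without the 3 libraries rich in olfactory receptor counts the log2 fold change was 4.38. That fit held a single Lyve-1+ library, replicate 3, in which Fkbp10 was highest. The library with the most Fkbp10 was also that with the highest sum of fibroblast markers, at 1455 CPM, and with the most Serpinh1, at 115 CPM, while Rcn3 was highest in Lyve-1+ replicate 1. The part of these cells in the Fkbp10 and Rcn3 values was not tested. Without Lyve-1+ replicate 3 the log2 fold change of Rcn3 was 3.20, and the other 2 Lyve-1+ libraries still summed to 533.1 and 578.7 CPM of fibroblast markers, above the highest Lyve-1- sum of 480.5 CPM. Fkbp10 shares 193 bp of exon with Nt5c3b on the other strand.

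**Figure D2:**
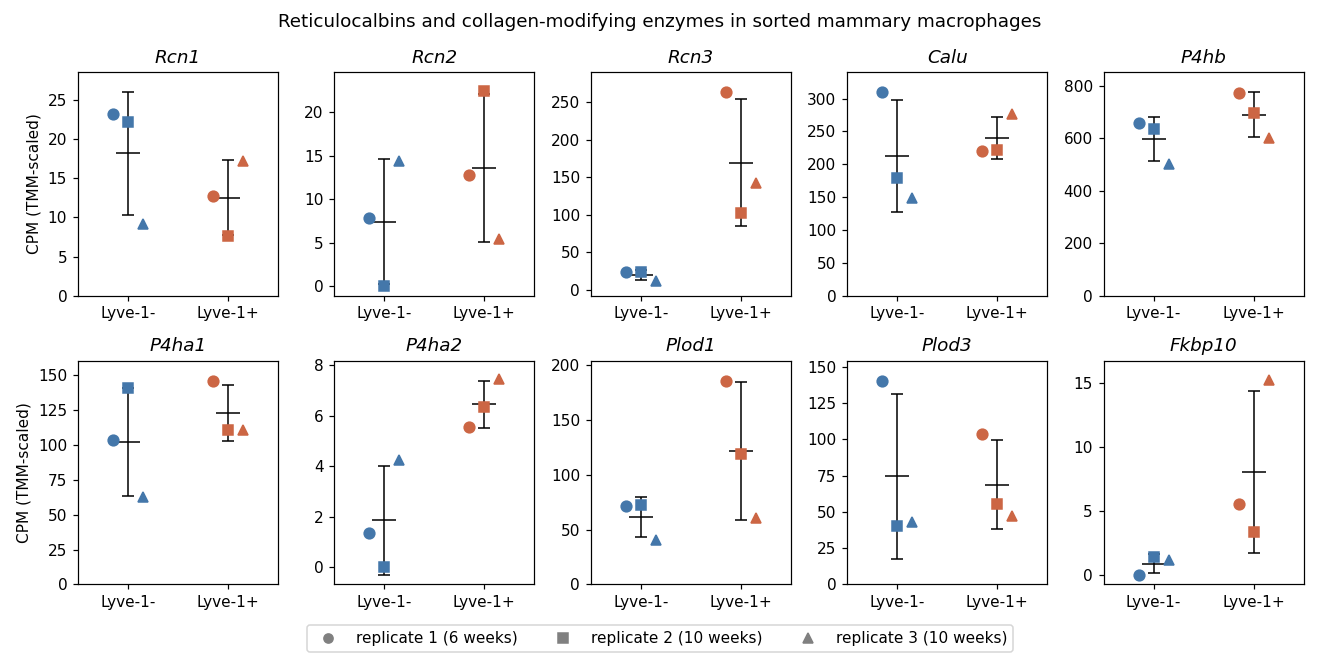
Each panel gives the TMM-scaled CPM (vertical axis, its own scale in each panel) of 1 gene in the 3 Lyve-1- (blue) and 3 Lyve-1+ (orange) libraries, with the marker shape for the replicate number and black bars for the mean and SD. The subsets do not overlap for Rcn3, P4ha2 and Fkbp10, the last 2 of which stay at or below 15.3 CPM.

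Over the 10 genes, 8 were higher and 2 (Rcn1 and Plod3) were lower in Lyve-1+ macrophages, and the median log2 fold change was 0.57, against -0.01 over the 13348 genes tested. The median ranged from 0.30 to 0.82 when single libraries were left out and was 0.02 without the 3 libraries rich in olfactory receptor counts. The rule for a call, with log2 fold changes between 1 and 10 in size and an adjusted p below 0.01, was met by 1 of the 10 (Rcn3) and by 0.112% of all genes. An adjusted p below 0.05 was reached by 1 of 10 again, against 0.629%. The Lyve-1+ libraries lay above all Lyve-1- libraries for 3 of 10 (Rcn3, P4ha2 and Fkbp10), against 7.82% of all genes, and below them for 0 of 10, against 6.5%. Since the list was chosen on this contrast, nothing is read from these shares. The call of Rcn3 was lost without Lyve-1- replicate 3, in the 10-week libraries alone, and without the 3 libraries rich in olfactory receptor counts, where its log2 fold changes were 2.86, 2.78 and 2.59.

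**Figure D3:**
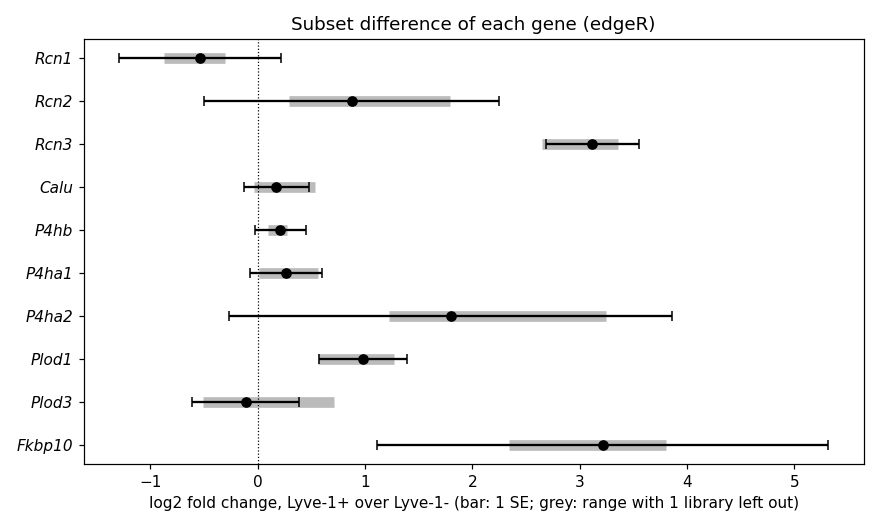
Points give the edgeR log2 fold change, Lyve-1+ over Lyve-1-, of each of the 10 genes, black bars 1 SE on either side, and grey bands the lowest and highest value with a single library left out. Rcn3 stands at 3.12 with a band from 2.65 to 3.36, Fkbp10 at 3.21 and P4ha2 at 1.80 have the widest bars, and P4hb, P4ha1 and Calu lie close to 0.

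Per kilobase of exon, the order of the 10 genes by mean level over the 6 libraries was P4hb (225 CPM per kb), Rcn3 (55.0), Calu (48.5), P4ha1 (27.3), Plod3 (15.9), Plod1 (13.5), Rcn1 (4.81), Rcn2 (2.21), Fkbp10 (1.52) and P4ha2 (0.665), where the median gene tested stood at 4.44 CPM per kb. P4hb, at the 99th percentile, was the single gene whose libraries did not overlap those of its neighbour in this order. Rcn3 moved furthest in order between the subsets, from the fifth place in Lyve-1- macrophages (11.3 ± 3.92 CPM per kb) to the second in Lyve-1+ macrophages (98.6 ± 49.3 CPM per kb). Calu (45.6 ± 18.4 and 51.4 ± 6.8 CPM per kb) was the second in the former and the third in the latter. The mean levels of Rcn2, Fkbp10 and P4ha2 in each subset were below 4.44 CPM per kb, the median taken over all 6 libraries.

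Age was not used in choosing the genes and could be tested. With the subset as a second term, edgeR's quasi-likelihood test with Benjamini-Hochberg adjustment found 0 of the 10 genes different between 10 and 6 weeks at an adjusted p under 0.05, where 3 of 13348 genes (0.0225%) passed. At an unadjusted p under 0.05 there were 2 of 10, Plod3 and Rcn3, against 3.33% of all genes, and DESeq2 gave 0 of 10 after adjustment and 1 of 10 before it. Plod3 was lower at 10 weeks, with a log2 fold change of -1.40 (SE 0.37, edgeR adjusted p = 0.559). In the 6-week libraries Plod3 stood at 140.2 and 104 CPM and at 10 weeks its means were 41.6 CPM in Lyve-1- and 51.4 CPM in Lyve-1+ macrophages. Across the alternative settings its adjusted p ran from 0.142 to 1, and its log2 fold change was -0.998 without the 6-week Lyve-1- library and -1.73 without the 6-week Lyve-1+ library. Rcn3 was at 23.5 and 264 CPM at 6 weeks against means of 17.4 and 122 CPM at 10 weeks, with a log2 fold change of -0.79 (SE 0.37, edgeR adjusted p = 1). Of the 10 genes, 3 were higher at 10 weeks. Each subset had a single 6-week pool, so age and those pools cannot be told apart, and a difference smaller than the spread between pools was not detectable.

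Of 86 other genes of collagen folding, ER protein folding and collagen itself, in 10 lists, 83 were tested. Of these, 66 were higher and 17 lower in Lyve-1+ macrophages, 4 rose and 0 fell at an adjusted p under 0.05, and 1, Colec12, met the stricter rule. Over all 13348 genes tested 6594 were higher, 0.629% passed at 0.05 in either direction and 0.112% met the stricter rule. The lists were written with earlier results of these data known. Nothing is therefore read from these counts, and the p-values of list genes are a description. Colec12, a scavenger receptor with a collagen-like stalk, was at 57.6, 41.8 and 42.3 CPM in Lyve-1- and 586, 359 and 323 CPM in Lyve-1+ libraries. It rose by 3.16 on the log2 scale (SE 0.32, edgeR quasi-likelihood test with Benjamini-Hochberg adjustment, adjusted p = 0.000524), and with Lyve-1- replicate 3 left out its edgeR adjusted p was 0.0142. The 9 collagen-domain proteins of macrophages had a median log2 fold change of 1.58, with 8 higher. Ficolin A (Fcna), a lectin that starts the complement cascade, rose by 5.64 (SE 0.80, edgeR adjusted p = 0.031), and this call was lost without Lyve-1- replicate 3, Lyve-1+ replicate 3 or Lyve-1+ replicate 2, with edgeR adjusted p-values of 0.151, 0.141 and 0.052. C1qa, a chain of complement C1q, also passed at 0.05, and Scara5 was lowest at -0.21, with 0.35 when Lyve-1- replicate 3 was left out and 0.01 without Lyve-1+ replicate 2.

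Of the foldases and chaperones closest in role to Fkbp10, 0 passed the test. The 6 tested of 7 had positive log2 fold changes, with a median of 1.30, from 0.33 for Tmem38b, an ER potassium channel, to 2.01 for the prolyl isomerase Fkbp11. Fkbp11 was low, at 0, 1.60 and 0.875 CPM in Lyve-1- and 0.305, 4.36 and 5.42 CPM in Lyve-1+ libraries. Its groups overlapped and its SE was 2.48. With at least 10 counts required in every library, the list median was 0.96. Tmem38b turned to -0.14 without Lyve-1- replicate 1, and to -0.32 when Lyve-1+ replicate 2 was left out. Serpinh1 (Hsp47), the chaperone of the procollagen helix, was at 28.1, 40.3 and 20.6 CPM in Lyve-1- and 51.4, 31.6 and 115 CPM in Lyve-1+ libraries. Its log2 fold change was 1.15 (SE 0.50, edgeR adjusted p = 0.581), the groups overlapped, and leaving out Lyve-1+ replicate 3 gave 0.45. Ppib, the ER cyclophilin, had a log2 fold change of 0.81 (SE 0.39, edgeR adjusted p = 0.662).

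The remaining enzymes of lysine and proline hydroxylation, 6 tested of 7, had a median of 0.44 and 0 passed the test. Plod2 was highest at 0.86 (SE 1.38) and P4ha3 lowest at -1.09 (SE 1.74), both with overlapping groups. The 2 collagen glycosyltransferases were both positive, with Glt25d1 at 0.36 and Colgalt2 higher, and had a median of 0.73, and 0 passed. Among 20 general ER chaperones and oxidoreductases, 15 were higher and 0 passed, with a median of 0.37, Txndc5 highest at 1.03 and Ero1l lowest at -1.03. Hspa5 (BiP), the main ER chaperone, was at 1774, 1571 and 1776 CPM in Lyve-1- and 2625, 2380 and 2501 CPM in Lyve-1+ libraries, without overlap, but its log2 fold change of 0.55 (SE 0.21) had an edgeR adjusted p of 0.448. The 9 regulators of the unfolded protein response had a median of 0.26, from -0.51 for Herpud1 to 2.21 for Creb3l1, a factor that drives collagen gene transcription, and 0 passed. Without Lyve-1+ replicate 3 Creb3l1 was at 1.48. The 8 of 9 procollagen export genes tested had a median of 0.39, from -0.54 for Sec23a to 0.58 for Lman1, and 0 passed.

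All 11 fibrillar and network collagens tested had a positive log2 fold change, 1 of them (Col5a2) passed at 0.05, and in 7 of the 11 the groups did not overlap. Over all genes tested, 0.629% passed at 0.05 in either direction, and in 7.82% every Lyve-1+ library lay above every Lyve-1- library. This list too was written with earlier results known, so nothing is read from these shares. The median of the 11 collagens was 1.68, from 0.38 for Col6a3 to 2.18 for Col1a2 (edgeR adjusted p = 0.0541, and 0.00106 to 0.309 with single libraries left out). Without Lyve-1+ replicate 3, the library with the most fibroblast marker counts, their median was 0.78. The 11 genes of procollagen processing and crosslinking had a median of 0.32, with 6 higher and 0 past the test. Pcolce2 was highest at 2.25 (SE 1.67) and Loxl4 lowest at -2.04 (SE 1.81), both with overlapping groups. Leaving out Lyve-1- replicate 2 turned the median of these 11 genes to -0.11, and leaving out Lyve-1- replicate 3 raised it to 0.81. Leaving out Lyve-1+ replicate 3 put it at 0.01 and Pcolce2 at 0.07.

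**Figure D4:**
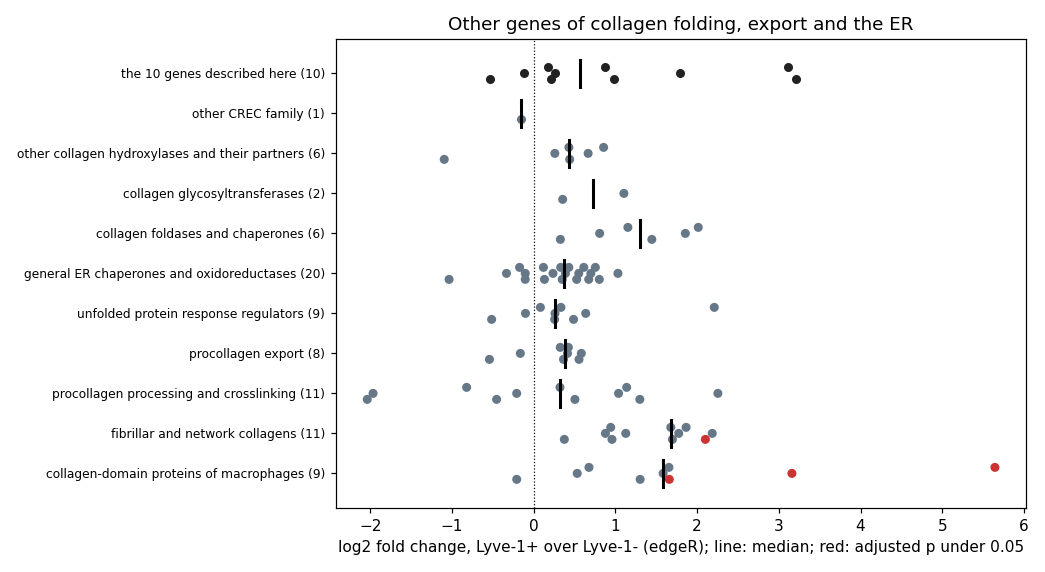
Each point is the edgeR log2 fold change, Lyve-1+ over Lyve-1-, of 1 gene, in rows by list with the number of genes tested in parentheses, and vertical lines mark the list medians. Red points have an adjusted p under 0.05 (Colec12, Fcna, C1qa and Col5a2), the top row in black holds the 10 genes described here, and all points of the collagen and of the foldase rows lie above 0.

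The genes whose levels over the 6 libraries were most like that of Rcn3 were Pdgfc, Plekhg5, Folr2, C4b and Colec12. Likeness was the Euclidean distance between log2 CPM values centred on each gene's mean, and it was 0.653, 0.679, 0.687, 0.764 and 0.883 for these 5. Their log2 fold changes between the subsets were 3.26, 2.71, 3.56, 3.17 and 3.16, near the 3.12 of Rcn3. The closest of the other 9 genes of the list was Plod1, with a log2 fold change of 0.978, at 2.87 and the 420th in order. For P4hb, Zswim6, Nrros, Ppp6r3 and Rhoa were among the 5 closest, at 0.166, 0.181, 0.195 and 0.204, and the closest member was P4ha1, at 0.625 and 640th in order. These orders describe 6 libraries that share their subset and age labels. The distance takes in the size of the subset difference, on which the genes were chosen, so the orders partly restate the fold changes.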

How the data were processed

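RNA was measured in 3 Lyve-1+ and 3 Lyve-1- libraries, each from a pool of 4 mice, prepared with a stranded total RNA kit. The authors deposited whole-number counts per gene symbol without normalization, and the submitters' processing notes name HISAT2 2.0.2 and featureCounts 1.5.0 on mm10. The annotation and the strand setting of the counting are not given in the sources used here. The study's methods name DESeq2, the removal of genes under 300 bp and of a failed 6-week library. Its single-cell data were not analysed here.

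The genes and lists were chosen with earlier results of these data known. R 4.3.3 with edgeR 4.0.16, limma 3.58.1 and DESeq2 1.42.0 was used. Of 24061 genes, 13348 passed filterByExpr by subset. After TMM scaling, the subsets were compared by edgeR's quasi-likelihood F test (robust) with no covariate, and 10 with 6 weeks with the subset as covariate, with Benjamini-Hochberg adjustment over all genes tested. A call needed an adjusted p below 0.01 and a log2 fold change of 1 to 10 in size, and for age an adjusted p below 0.05. An SE is the absolute log2 fold change divided by the square root of F. CPM used the TMM-scaled library size, and log2 CPM used a prior count of 2. Levels between genes used exonic length from GENCODE M21 (mm10), which matched 22749 symbols directly and 922 through a synonym, leaving 390. Scripts were tested on simulated data.

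The genes named were the 10 members, the highest and lowest of each list and any called, Sdf4, Serpinh1, Ppib, Hspa5, Lyve1, the leading gene of each marker list and the 5 genes closest to Rcn3 and P4hb. Some results under this rule are not reported here. C1qa and Col5a2 were named after their values were seen. Alternatives were DESeq2, its size factors, total library size, other filters, a replicate block, age as a covariate, 10-week libraries alone, genes under 300 bp removed, olfactory receptor density subtracted, other limits and each library left out. Library totals of 6478007 to 21406839 counts put 3 counts at 0.144 to 0.437 CPM, which covers counting error only. P-values set a difference against the spread between pools, and in the subset test that spread mixes pools of both ages. Replicates of a subset differed far beyond counting noise.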

Additional observations from a re-analysis of the deposited data

Results flagged for a closer look

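Calu and Plod3 drew attention because their difference between the subsets had one direction at 6 weeks and the other at 10 weeks. For Calu, Lyve-1+ minus Lyve-1- on the log2 CPM scale was -0.49 for the 6-week libraries and 0.30 and 0.90 for the 10-week libraries of equal number. For Plod3 these differences were -0.43, 0.47 and 0.13. In an edgeR model with subset, age and their interaction, chosen after the values were seen, the interaction was 1.09 for Calu (edgeR adjusted p = 0.976) and 0.737 for Plod3 (edgeR adjusted p = 0.976) on the log2 scale. The 6-week side of each rests on a single pool per subset.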

How the results depend on the processing

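The log2 fold changes of Rcn3, P4ha2, Fkbp10 and Rcn2 stayed positive and that of Rcn1 stayed negative under every alternative in which the gene was tested. That of Plod3 was positive with the replicate block (0.05), with age as a covariate (0.06), in the 10-week libraries alone (0.30) and without Lyve-1- replicate 1 (0.71) or Lyve-1+ replicate 3 (0.06). The number of members called was 1 in the analysis as reported, 0 in the 10-week libraries alone, 0 without the 3 libraries with the most olfactory receptor counts (an alternative chosen after seeing the data), and 0 to 1 when single libraries were left out, with 0 only without Lyve-1- replicate 3. The number called among all genes was 15 as reported, 145 with DESeq2, 188 with no filter on low counts, 32 with at least 10 counts in every library, 58 with age as a covariate and 84 at an adjusted p under 0.05 with no limit on the fold change. It was 1 (without Lyve-1- replicate 3) to 81 (without Lyve-1+ replicate 2) when single libraries were left out. Of the list genes outside the 10, 1 was called as reported, 7 with DESeq2, 11 with no filter, 4 at an adjusted p under 0.05, and 0 (without Lyve-1- replicate 3) to 8 (without Lyve-1+ replicate 2) with single libraries left out. The cause of these shifts was not tested.

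With a replicate block, 140 genes and 1 member were called and the Rcn3 log2 fold change was 3.08. To see whether the numbers pair the libraries, deviations of log2 CPM from the subset mean were correlated over the genes tested. Each Lyve-1- library was set against each Lyve-1+ library in this way. These correlations of deviations were -0.0462, -0.00183 and -0.147 for same-numbered libraries, and 0 of 6 libraries lay closest to its own number. The numbers were therefore not taken to pair the libraries. The highest correlation of deviations, 0.158, was between Lyve-1- replicate 3 and Lyve-1+ replicate 1, which had the most olfactory receptor genes with counts. The check cannot exclude that same-numbered libraries came from the same mice. The age count of 0 members stood with DESeq2, its size factors, total library size, both other filters and each library left out, the alternatives run for age. A filter of at least 10 counts in every library removed Rcn2, P4ha2 and Fkbp10, whose low counts limit their precision. Over all genes, the median shifted by -0.26 with no filter, by -0.16 without the 3 libraries named above, and by at most 0.11 in size under the other alternatives.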
